A study of Mus musculus with 2 samples.

Results

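Retained-intron transcripts are annotated products of a gene that keep at least part of an intron and have no annotated coding sequence. They were taken as every transcript of the deposited table whose biotype was retained_intron, which gave 15619 of 109463 transcripts (14.3%) from 6770 of 45578 genes. Introns are normally removed in the nucleus, and a transcript that keeps one is often held there or carries an early stop codon that exposes it to nonsense-mediated decay once ribosomes read it. Neurons and other cells use intron retention to hold back or tune the output of some genes, and kinases and factors of the splicing machinery are well known for it. In ribosome profiling a nuclease digests RNA that is not shielded by ribosomes, so a fragment counted on a transcript is a footprint matching its sequence.

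Footprints had been collected from polysomes of whole brains of 2 control mice at postnatal day 5. The animals were heterozygous Taiwanese mice, Smn+/-; SMN2tg/0, on a congenic FVB background, so both carried 1 disrupted mouse Smn copy and the human SMN2 transgene, and wild-type animals were not analysed here. They formed a single group of biological replicates (n = 2), so the values describe 1 kind of brain and the spread between 2 libraries, and no condition was compared. Polysome fractions of each brain had been pooled and digested with RNase I, and fragments of 25 to 35 nucleotides had been kept. How a footprint was counted that matches several transcripts of a gene is not given in the sources used here. A retained-intron transcript shares exons with the coding transcripts of its gene. Footprints on the shared exons and footprints on the intron itself cannot be told apart in counts per transcript.

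The libraries held 1866831 footprints in replicate 1 and 5261878 in replicate 2, and a count of 0 allowed up to 1.61 and 0.570 CPM (footprints scaled to a library of 1000000), taking 3 counts as the floor. Marker genes of neurons (5 of 5), astrocytes (4 of 4), oligodendrocytes (4 of 4), microglia (3 of 3), endothelium (2 of 2), choroid plexus (1 of 1) and red cells (2 of 2) had at least 3 counts in each library. Liver markers summed to 0 and 2 counts. Of the skeletal muscle markers Acta1 held 140 and 264 of 148 and 278 counts, and its sequence is close to that of the brain's actins. In whole brain, fewer cells of a type and less RNA per cell cannot be told apart.

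Retained-intron transcripts took 9.09% of the footprints in replicate 1 (95% interval 9.05 to 9.13, exact Clopper-Pearson) and 9.64% in replicate 2 (9.61 to 9.66), a mean of 9.36% ± 0.387 (SD, n = 2). Intervals here and below cover counting error alone, because PCR copies are not independent molecules. Coding transcripts took 75.5% ± 1.09, processed transcripts 5.59% ± 0.271 and transcripts annotated as targets of nonsense-mediated decay 3.97% ± 0.383. The retained-intron share of the footprints was thus below the 14.3% that these transcripts made up of the table. Each had a median length of 847 nt, against 1845 nt for coding transcripts, and weighing every transcript by its footprints per kilobase gave a share of 12.8%.

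A footprint was found on 11558 of the 15619 retained-intron transcripts in replicate 1 and on 13588 in replicate 2. Both libraries detected 11327, and 1800 had no footprint in either. A mean count of at least 10 was reached by 6517 (41.7%), against 55.0% of coding transcripts. The transcripts were unevenly spread over genes. One such transcript was annotated for 2958 genes, 1613 genes had 2, 952 had 3 and 1247 had at least 4, and the noncoding snoRNA host gene Gas5 had the most with 20. A coding transcript accompanied them in 6604 genes, and 166 genes had none.

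Footprint density, the CPM of a transcript per kilobase of its annotated length, was compared between kinds of transcript whose counts averaged 10 or more. Retained-intron transcripts had a median density of 5.40 CPM per kb in replicate 1 and 6.63 in replicate 2. The medians of coding transcripts were close by, at 5.28 and 6.27, and those of annotated decay targets were 4.67 and 6.11. Processed transcripts, which lack a coding sequence too, lay higher at 7.69 and 9.13. The retained-intron median lay slightly above the coding one within each library, and no test was made of this difference. The minimum of 10 counts admits a short transcript only at a higher density. Over all transcripts, with no minimum, the retained-intron medians of 1.30 and 1.75 CPM per kb were below the coding medians of 1.67 and 2.19.

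**Figure D1:**
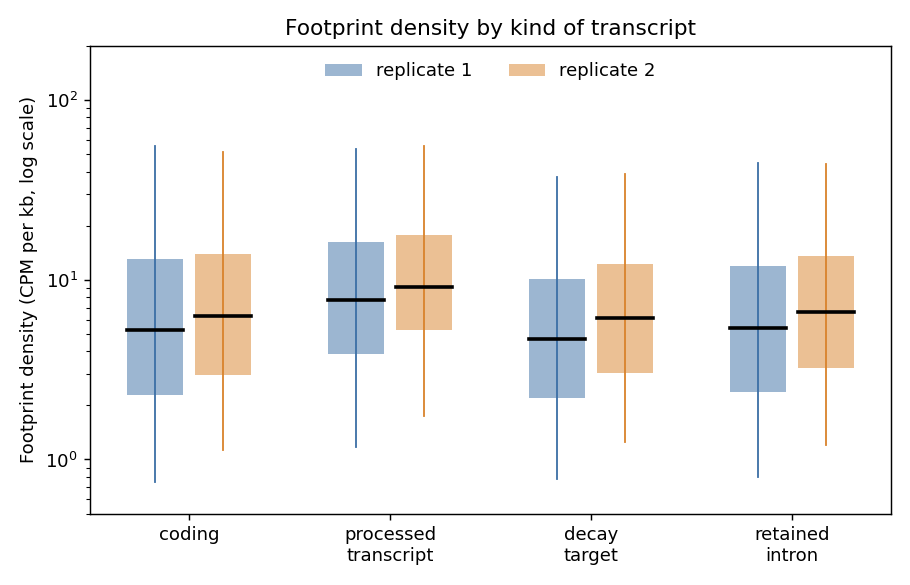
Footprint density (CPM per kb of transcript, log axis) of transcripts whose counts averaged 10 or more, by annotated kind and replicate; black lines are medians, boxes span the quartiles and thin lines the 5th to 95th percentile. Retained-intron medians were 5.40 and 6.63 CPM per kb, next to 5.28 and 6.27 for coding transcripts.

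A different picture was seen inside genes, where retained-intron transcripts were compared with the coding transcripts of the same gene and the level of the gene drops out. The summed retained-intron footprints per summed kilobase were a median of 0.598 times the coding density in replicate 1 (5098 genes). In replicate 2 the median was 0.599 times (5454 genes). On the mean of the replicates the median was 0.585 (log2 -0.77) over 5488 of 5585 genes. A gene without footprints on its retained-intron or its coding transcripts gave no ratio and was left out. Genes left out for want of retained-intron footprints would have lain at the low end, so the medians and percentages describe the remaining genes. In 972 genes (17.7%) the retained-intron transcripts were denser than the coding ones, and in 2222 (40.5%) they had less than 0.5 times the coding density. This gap was not shared by annotated decay targets, which had a median of 1.03 times the coding density, whereas processed transcripts had 0.787 times. In the 1944 genes that held all of retained-intron, decay-target and coding transcripts with footprints, the medians were 0.575 for retained-intron transcripts and 1.02 for decay targets, and the retained-intron value was the lower one in 1612 genes (82.9%). These differences between kinds are descriptions over genes, which are not replicates, and were not tested. Coding density was taken over the whole coding transcript, untranslated regions included. With the same footprints laid over the coding sequence alone, an alternative chosen after the data were seen, the median ratio was a log2 of -1.60.

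The length of the retained-intron transcript went along with this ratio. Those of up to 500 nt had a median of 0.525 and 0.684 times the coding density of their gene in replicates 1 and 2, and those over 500 and up to 1000 nt had 0.547 and 0.648. Values of 0.565 and 0.613 were found over 1000 and up to 2000 nt. Transcripts over 2000 and up to 4000 nt reached only 0.430 and 0.444 times, and those over 4000 nt 0.401 and 0.425 times. The drop above 2000 nt was seen in both replicates, while the order of the shorter classes differed between them. Within genes neither order held throughout. Among 2400 genes of 100 or more counts on average and several retained-intron transcripts, the shortest was denser than the longest in both replicates in 1148 (47.8%), and the longest was denser in both in 703 (29.3%).

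**Figure D2:**
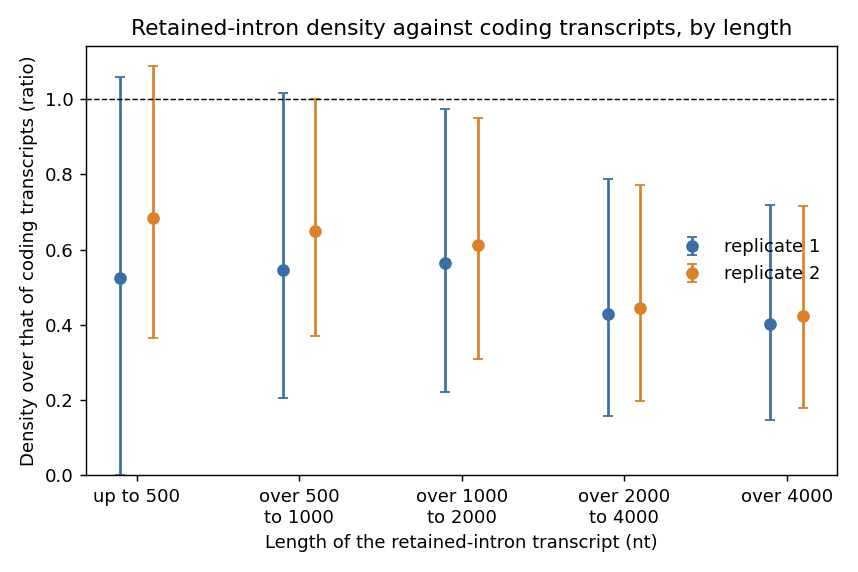
Density of single retained-intron transcripts as a ratio to the coding transcripts of the same gene, by transcript length and replicate; points are medians, bars span the quartiles and the dashed line marks equal density. Medians lie between 0.525 and 0.684 up to 2000 nt and between 0.401 and 0.444 above.

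The simplest genes were the 228 whose only transcripts were 1 coding and 1 retained-intron transcript. There the retained-intron transcript held a median of 22.6% of the gene's footprints in replicate 1 and 25.0% in replicate 2, and its density was 0.625 and 0.684 times the coding one. Where it was the shorter of the pair (171 genes), it held 18.0% and 20.3%. Where it was the longer (57 genes), it held 35.7% and 38.5%, although it made up a median of 58.3% of the pair's length. It took more than 50% of the footprints in both replicates in 5 of the 228 genes.

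The share of a gene's footprints that lay on its retained-intron transcripts was then taken for all 5626 genes whose summed counts averaged 10 or more. A further 1144 genes had such transcripts but fell under this minimum. Close to the minimum, 31 genes had a mean count from 10 to under 11, and 42 left out had one from 9 to under 10. The median share was 15.3% in replicate 1 and 15.8% in replicate 2 (15.7% on the mean of the replicates), with quartiles of 7.28% and 28.4%. No footprint was found on the retained-intron transcripts of 98 genes, and the share was under 5% in 941 and at least 25% in 1717. Across genes the shares of the replicates had a Spearman correlation of 0.881 (n = 5623 genes), and of 0.956 over the 3684 genes whose mean count was 100 or more. Genes are not independent replicates, and both libraries were counted on 1 annotation.

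How much of a gene was annotated as retained intron went closely with its share. The Spearman correlation across the 5626 genes was 0.772 between the share of footprints and the share of the gene's summed transcript length, and 0.646 with the share of its number of transcripts. Retained-intron transcripts made up a median of 24.9% of the summed length and 33.3% of the transcripts. Where they covered up to 10% of the length they held a median of 3.74% and 4.24% of the footprints, and where they covered 40 to 50% they held 30.5% and 30.7%. At 70 to 100% of the length the medians were 57.9% and 58.1%. The share of footprints exceeded the share of length in 988 genes (17.6%).

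**Figure D3:**
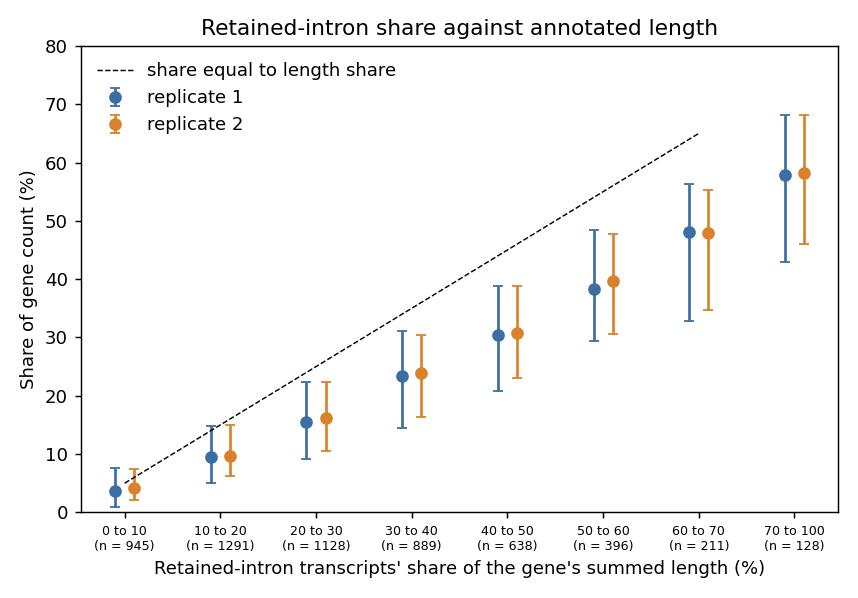
Share of a gene's footprints on retained-intron transcripts (%) against their share of the gene's summed transcript length (%), in classes of genes; points are medians per replicate, bars span the quartiles and the dashed line marks a footprint share equal to the middle of the length class. All medians lie below the line, rising from 3.74% and 4.24% to 57.9% and 58.1% in the last class, which has no line because it is wider.

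The retained-intron transcripts with the highest levels belonged to abundant neuronal and housekeeping genes. The highest was Tubb5-004, from the gene of a beta-tubulin abundant in developing brain, with 469 CPM in replicate 1 and 302 in replicate 2. It was followed by Hspa8-002, from the constitutive heat shock cognate chaperone, with 385 and 348 CPM. Slc25a4-002, from the mitochondrial adenine nucleotide carrier, had 367 and 254 CPM. In CPM, replicate 1 lay above replicate 2 for each of these. The exact binomial test described below called each of them lower in replicate 2. That test used library sizes scaled by trimmed-mean factors and not the library totals behind the CPM.

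Further transcripts among the 10 highest came from Uchl1 (the neuronal deubiquitinase; Uchl1-002, 303 CPM ± 99.0, SD, n = 2), Maged1 (302 ± 42.2), Eef1a1 (elongation factor 1A; Eef1a1-005, 272 ± 22.3, and Eef1a1-004, 243 ± 47.0), Ywhaz (a 14-3-3 protein; 239 ± 28.4) and Calm2 (calmodulin; Calm2-003, 235 ± 43.5). In 8 of the 10 the density was at least 0.926 times that of the gene's coding transcripts. Ywhaz-007 had 2.16 times the coding density and Slc25a4-002 had 1.20 times, whereas Hspa8-002 had 0.726 times. The Slc25a4 gene has only 1 coding transcript beside it, and the retained-intron transcript held 44.3% and 44.5% of its footprints.

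Ranked by density, short transcripts of globins led together with Tubb5-004, which ranked between them with 479 and 308 CPM per kb. Hba-a1-002, of 494 nt, from an alpha-globin gene whose protein carries oxygen in red cells, had 520 and 395 CPM per kb. Hba-a2-002, of the same length, had 511 and 348; these genes are near-identical copies, and footprints may have been split between them. Hbb-bs-003, of an adult beta-globin, had 422 and 311 CPM per kb, and red cell markers were present in both libraries. Further brain transcripts followed with Calm2-002 at 355 and 284 CPM per kb, Uchl1-004 at 364 and 255, Tuba1b-002 at 367 and 250 and Ywhae-003 at 342 and 272. Within Calm2, the 657 nt Calm2-002 was denser than the 890 nt Calm2-003 (299 and 229) and than the coding Calm2-001 (242 and 185) in both replicates. Within Uchl1, Uchl1-003 stood apart with 80.7 and 51.1 CPM per kb against 390 and 230 for the coding Uchl1-001.

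At least 50% of the footprints lay on retained-intron transcripts in 295 of the 5626 genes (5.24%), and in 233 of them in both replicates taken singly. The limit does not fall in a gap, since 37 genes had shares from 50 to under 51% and 22 from 49 to under 50%. A coding transcript was annotated in 282 of these genes. Their retained-intron transcripts outnumbered their coding transcripts in 255 of the 282, and 59.2% had a single coding transcript, against 18.5% of the 5303 genes below the limit. In 217 of the 282 the coding transcripts were still the denser ones. Taking shares of density in place of counts gave 671 genes at 50% or more, and a minimum mean count of 100 left 184.

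Among genes that had a coding transcript and averaged 100 or more counts, Nat10 (ENSMUSG00000027185), encoding an RNA acetyltransferase, had the highest share. It held 55 of 68 footprints on 11 retained-intron transcripts in replicate 1 (80.9%, interval 69.5 to 89.4) and 214 of 260 in replicate 2 (82.3%, 77.1 to 86.7). These 11 transcripts also made up 80.6% of the length of its 14, and their density was 1.07 times that of its coding transcripts. D2Wsu81e followed with 78.6% and 82.7%, Rfc3, a subunit of the clamp loader of DNA replication, with 83.0% and 72.8%, and Chkb, a choline kinase, with 73.3% and 77.5%. Saal1 had 76.1% and 72.1%, and Lrwd1 had 72.3% and 70.6%.

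Further genes of that rank were Polr2e, a subunit of the nuclear RNA polymerases (68.1% and 76.8%), and Sharpin, of the linear ubiquitin chain complex (68.2% and 74.9%). Without the higher minimum, the list was led by genes with few footprints. All of the 8 and 27 footprints of Tmprss11a, a membrane serine protease, lay on Tmprss11a-002 and none on its coding transcript. 1500012F01Rik had 11 of 13 and 49 of 57, Xlr3b 8 of 10 and 10 of 13, Arhgap4 13 of 19 and 29 of 33, and Qtrtd1 14 of 15 and 97 of 138.

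**Figure D4:**
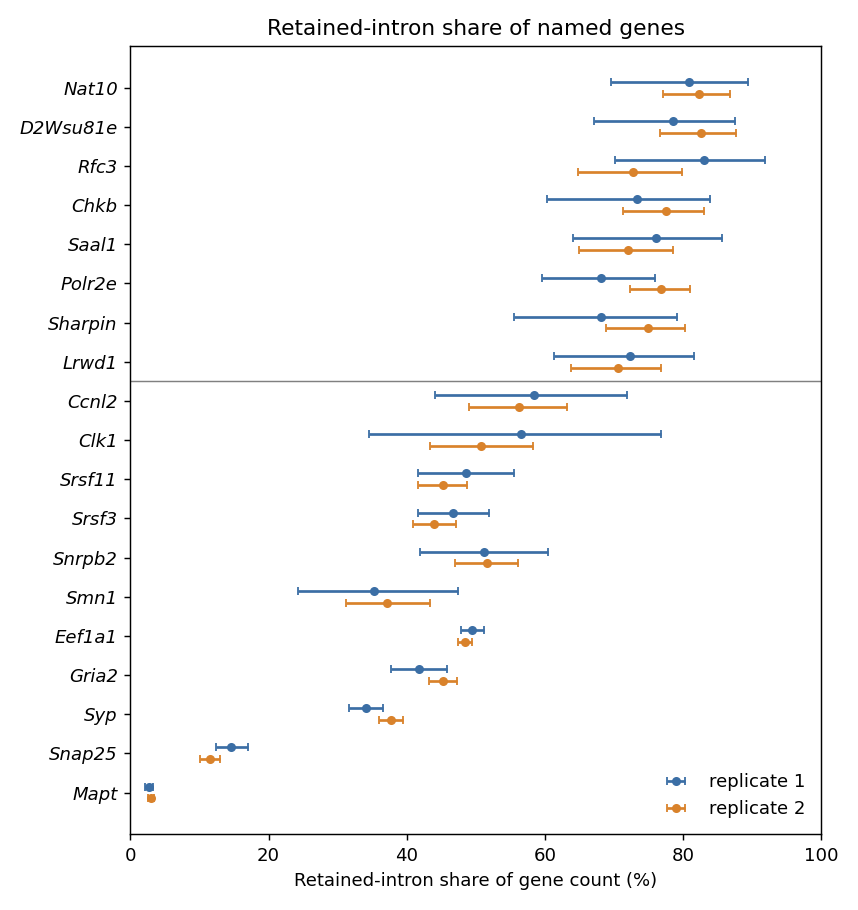
Share of the gene's footprints on retained-intron transcripts (%) in each replicate, with exact Clopper-Pearson 95% intervals; above the line are 8 of the 10 genes with the highest shares among those that have a coding transcript and average 100 or more counts, below it examples from the gene lists. Shares of the upper genes lie between 68.1% (Polr2e) and 83.0% (Rfc3) in single replicates, and those below range down to 2.67% and 2.92% for Mapt.

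In 41 genes of the 5626 no coding transcript was annotated, and their median share was 33.3% and 34.3%. All transcripts of 4 of them were retained introns, which fixes the share at 100%: Gm20427 with 72 and 181 footprints, Gm21982 with 115 and 251, RP23-169H9.3 with 51 and 126 and Gm36995 with 20 and 87. Their overlap with other genes was not examined here. Hosts of small nucleolar RNAs, which are spliced to release these RNAs from their introns, were also found here. Gas5 (ENSMUSG00000053332) had 46 of 54 footprints (85.2%) and 161 of 183 (88.0%) on its 20 retained-intron transcripts, which were 86.5% of its length. Gas5-003, its longest at 2556 nt, held 21 and 47 of these. Snhg5 had 29 of 35 and 77 of 110, a share of 76.1% on 39.3% of its length, and Snhg4 had 4 of 7 and 14 of 23. The noncoding 1110038B12Rik had 88.5% and 85.9% on 96 and 170 footprints.

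The 10 genes with the most retained-intron transcripts differed widely in the share of footprints on them. On the mean of the replicates it ran from 8.51% (Birc6) to 86.7% (Gas5), beside a median of 15.7% over all genes. The part of the gene's length that they made up differed widely too. It ran from 16.8% in Ank3 and 23.7% in Birc6 to 69.2% in Phip and 86.5% in Gas5. Eif4a2, a translation initiation helicase that hosts small nucleolar RNAs too, had 15 and held 36.7% and 34.6% of its footprints on them. Rbm5, an RNA-binding splicing regulator, had 13 (35.4% and 36.6%), and Phip had 12 (58.9% and 57.0%). By contrast, 12 such transcripts of the giant ubiquitin ligase gene Birc6 held 10.2% and 7.52%, and 12 of the axonal scaffold gene Ank3 held 7.58% and 11.1%. Camk2d, a calcium and calmodulin kinase, had 22.3% and 25.6% on 12, 4932438A13Rik 17.6% and 20.5% on 14, Dopey1 28.8% and 24.9% on 12, and Cspp1 45.5% and 30.7% on 16 from only 11 and 75 footprints.

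Splicing factors and kinases, which assemble spliceosomes or phosphorylate their SR proteins, had retained-intron transcripts in 30 of 42 listed genes. All 30 passed the minimum, and their median share was 19.6% in replicate 1 and 17.7% in replicate 2, beside 15.3% and 15.8% over all 5626 genes. The members ranged from 0.238% to 57.2%. Ccnl2, a cyclin of splicing speckles, had 31 of 53 footprints (58.5%) and 113 of 201 (56.2%) on 3 retained-intron transcripts. These were 66.1% of its length, at 0.683 times the coding density. Clk1, the kinase of SR proteins, had 13 of 23 (56.5%) and 93 of 183 (50.8%) on 7. These were 62.5% of its length, at 0.399 times the coding density.

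High shares were also seen for Srsf11 (48.6% and 45.2%) and Srsf3 (46.8% and 44.0%), which encode RNA-binding splicing proteins. Their retained-intron transcripts were 57.3% and 56.3% of the gene's length, at 0.631 and 0.682 times the coding density. Hnrnpk, an hnRNP with 9 such transcripts, held 25.7% and 25.8%. Srsf1, the founding SR protein, had 19.3% and 19.2% on transcripts that were 11.5% of its length, a density 1.79 times that of its coding transcripts. At the other end Hnrnpd had 2.28% and 2.01%, on 2.49% of its length and at 0.932 times the coding density. Son, a large nuclear speckle protein, had 0 of 237 and 4 of 1015 footprints on its retained-intron transcript. This transcript was 1.22% of its length, at 0.171 times the coding density. Nktr, another speckle-linked gene, had 0 of 29 and 13 of 131 on 6. These were 38.9% of its length, at 0.0838 times the coding density.

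Genes known from other work to keep introns had such transcripts in 12 of 19 cases, with a median share of 25.1% and 25.2%. Their median share of length was 43.2%, against 24.9% over all genes. Apart from Ccnl2 and Clk1, Ccnl1 had 12 of 34 (35.3%) and 58 of 106 (54.7%), and Srsf5 had 27.6% and 30.0%. Among members known for retention in the nervous system, Vamp2, a vesicle SNARE, had 24.0% and 20.5%, and Sv2a, a vesicle glycoprotein, had 11.6% and 13.5%. Robo3, the axon guidance receptor with a known intron-retaining form, had 2 of 6 and 7 of 17 footprints. Ogt, the O-GlcNAc transferase known for a detained intron, had 22.8% and 17.1%.

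The SMN complex helps to assemble Sm proteins on small nuclear RNAs. Of 21 listed genes of this complex, of Sm proteins and of other snRNP proteins, 9 had retained-intron transcripts. Their median share was 35.2% and 37.0%, on a median of 48.1% of the length. Smn1, which is heterozygous in these animals, had 25 of 71 footprints (35.2%, interval 24.2 to 47.5) and 94 of 253 (37.2%, 31.2 to 43.4) on 5 retained-intron transcripts. Smn1-005 (639 nt) held 11 and 35 of them, and Smn1-010 (417 nt) 0 and 2. Their combined density was 0.488 times that of its coding transcripts, and the coding Smn1-001 had 12.3 and 14.9 CPM per kb. Human SMN2 sequence can match some of these footprints, and its part was not tested. Snrpb2 had 51.2% and 51.6%, Snrpb 37.0% in each replicate, and Snrpc 42.9% and 47.6% on a single transcript that was 87.4% of its length. Snrpd3 held 23.3% and 25.0% on 18.0% of its length, at 1.44 times the coding density. Snrpa had 3.59% and 3.91% on 8.52% of its length, at 0.412 times the coding density.

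Synaptic genes had a median share of 14.6% and 13.5% over the 17 of 26 with retained-intron transcripts, close to that of all genes. Gria2, the AMPA receptor subunit that limits calcium entry, stood highest with 251 of 601 (41.8%) and 1119 of 2474 (45.2%) on 5 transcripts. Syp, a synaptic vesicle protein, had 34.1% and 37.7%. Snap25-003 is 4880 nt long, 60.9% of the length of the SNARE gene Snap25, and held 14.6% and 11.5%. Its density of 14.4 and 8.45 CPM per kb compares with 191 and 143 for the coding Snap25-002.

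Cytoskeleton genes with retained-intron transcripts (9 of 22) had a median share of 17.8% and 18.5%. Stmn2, a tubulin-binding protein of growing axons, held 36.2% and 38.2%, Tubb5 30.2% and 31.9%, and Actg1, gamma actin, 19.9% and 20.2%. Map2 and Mapt, the dendritic and axonal microtubule-binding proteins, held 4.18% and 3.97% and 2.67% and 2.92%. Their retained-intron transcripts were 8.49% and 4.20% of the gene's length. Actin and tubulin genes have close copies, and their counts are uncertain.

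Translation factors (15 of 28) had a median of 17.7% and 19.6%. Eef1a1 held 1762 of 3562 footprints (49.5%) and 4089 of 8444 (48.4%) on 4 retained-intron transcripts, at 1.03 times the coding density. All 8 of its transcripts lay between 201 and 326 CPM per kb in replicate 1 and between 172 and 248 in replicate 2, whatever their annotation. Eif5b, which joins ribosomal subunits, had 47.6% and 48.2%, and the helicase gene Eif4a1 had 43.1% and 40.2%. Eif4g3 was lowest with 1.14% and 1.67%.

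Cytosolic ribosomal proteins had retained-intron transcripts in 47 of 84 genes, and the median share was 32.6% and 32.7%, on a median of 47.8% of the length. At least 50% of the footprints lay on them in 11 of the 47 genes (23.4%, beside 5.24% of all genes). These included Rpl13 (72.7% and 70.0%), Rps21 (69.6% and 66.1%), Rpl12 (62.7% and 65.7%) and Rpl36a (62.6% and 57.9%). The density ratio of the list was a median of 0.597, next to 0.585 over all genes that gave a ratio. Retained-intron transcripts were denser than coding ones in Rps15a (1.96 times), Rpl18 (1.27) and Rpl13a (1.04). Rps20 had the highest ratio of the list, 4.57, with 114 of 204 (55.9%) and 348 of 591 (58.9%) on 22.8% of its length. Its coding transcript is 3706 nt long with a coding sequence of 360 nt, and the short Rps20-002 (582 nt) had 77.3 and 68.3 CPM per kb against 13.0 and 12.5. Rps27l had no footprint on its retained-intron transcript of 338 nt, beside 52 and 295 in all. Matches of these genes and of Eef1a1 to the 5924 annotated processed pseudogene transcripts were not examined. Their counts are uncertain to that extent.

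The genes at the ends of the density ratio were singled out after their values had been seen, among 3675 genes with both kinds of transcript and 100 or more counts on average. Retained-intron transcripts were denser than coding ones in both replicates in 455 of these genes, and over 2 times as dense in 48. Tppp, which encodes a tubulin polymerization promoting protein, had the highest ratio of 6.47. Its Tppp-003 (405 nt) had 27.8 and 33.8 CPM per kb, and its coding transcript, 5090 nt long with 657 nt of coding sequence, had 4.21 and 5.30. Rab8a, a GTPase of membrane traffic, had a ratio of 5.99 and Timm17a, of the mitochondrial import channel, 5.73.

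At the low end, 23 of the 3675 genes had no footprint on their retained-intron transcripts in either replicate, and 62 had a share under 1% in both. Gtf2b, a general transcription factor, had 0 of 52 and 1 of 210 footprints on a transcript that was 68.7% of its length. Fam117b had 0 of 260 and 1 of 545 on 22.8% of its length, and Zbed5 0 of 229 and 4 of 581 on 43.5%. Single silent transcripts were rare in well covered genes. Of 9652 retained-intron transcripts in genes averaging 100 or more counts, 160 (1.66%) had no footprint in either library, among them Tsc22d1-015, Reln-016, Myo5a-014 and Ank3-017. The retained-intron transcript was the most abundant of all transcripts of its gene in 278 of 5585 genes with a coding transcript (4.98%), and in 86 of them in each replicate.

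The replicates were next compared in how each gene divided its footprints between retained-intron and other transcripts, with Fisher's exact test (two-sided) and Benjamini-Hochberg adjustment over 5622 genes. Only Ywhah and Pde10a passed an adjusted p of 0.05 (0.0356% of the genes tested), both with a lower share in replicate 2. Ywhah (ENSMUSG00000018965), a 14-3-3 protein of brain, had 230 of 1174 footprints (19.6%, interval 17.4 to 22.0) on Ywhah-004 in replicate 1 and 287 of 2344 (12.2%, 10.9 to 13.6) in replicate 2, with an adjusted p of 7.6e-05 by Fisher's exact test. The density of this 2181 nt transcript was 56.5 and 25.0 CPM per kb, below that of the coding Ywhah-001 (189 and 127) in both. Pde10a (ENSMUSG00000023868), the cyclic nucleotide phosphodiesterase of striatal neurons, had 26 of 194 (13.4%, 8.94 to 19.0) and 26 of 654 (3.98%, 2.61 to 5.77) on Pde10a-007, with an adjusted p of 0.0271 by the same exact test. In replicate 1 Pde10a-007 (782 nt) was the densest transcript of its gene at 17.8 CPM per kb, and in replicate 2 it had 6.32.

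At an unadjusted p of 0.05, 261 genes (4.64%) passed this exact test, 136 with a higher and 125 with a lower share in replicate 2. The shares of decay targets and of processed transcripts were tested the same way as a background. Fisher's exact test called 0 of 2611 genes for decay targets, with 116 at an unadjusted p of 0.05 (4.44%), and 3 of 5061 (0.0593%) for processed transcripts, with 228 (4.51%). The genes next to the threshold were Adgrl2 (15.3% and 7.61%), Rcn2 (34.3% and 23.8%) and Capns1 (14.4% and 7.64%) on the lower side. Dlat (11.6% and 23.1%), Gsk3b (8.24% and 13.6%), Ptov1 (41.9% and 50.0%), Nkap (6.35% and 26.3%) and Car11 (22.9% and 36.8%) had the lowest p-values on the higher side. None of the 7 gene lists held a called gene by Fisher's exact test, and at an unadjusted p of 0.05 the lists held from 0 to 3. Only counting noise enters this test, so it speaks of these libraries and not of a condition. It called no gene once replicate 2 had been reduced at random to the depth of replicate 1.

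**Figure D5:**
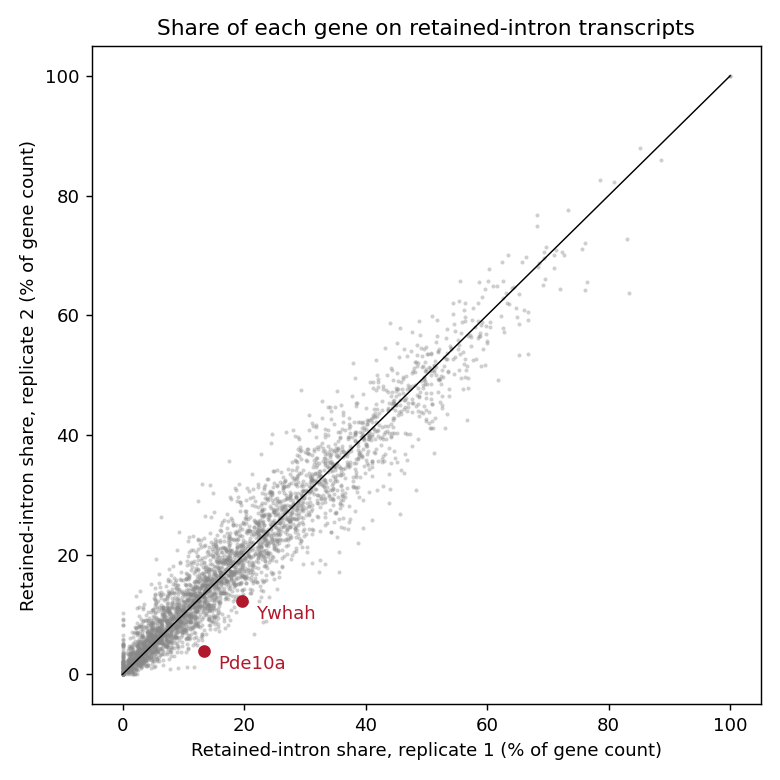
Share of a gene's footprints on retained-intron transcripts (%) in replicate 1 and replicate 2, for 3684 genes averaging 100 or more counts (grey points) with the line of equality. The called genes Ywhah (19.6% and 12.2%) and Pde10a (13.4% and 3.98%) are in red and lie below the line.

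Single transcripts were compared between the libraries with an exact binomial test (two-sided) against the ratio of effective library sizes, adjusted over 43655 transcripts of any kind averaging 10 or more counts. Of these 2418 were called (5.54%), 312 higher (0.715%) and 2106 lower (4.82%) in replicate 2. Among 6517 retained-intron transcripts 179 were called (2.75%), 23 higher and 156 lower. The share of higher calls depended on the scaling: 12.8% of the called retained-intron transcripts with trimmed-mean factors, and 40.9% (56 of 137) with library totals. Retained-intron transcripts had a median mean count of 25, against 48 for coding transcripts, of which 7.06% were called.

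The other transcripts of the gene mostly lay on the same side. Their summed footprints were also lower in replicate 2 for 144 of the 155 lower transcripts whose gene had footprints elsewhere, and also higher for 22 of the 23; Gm21982 has a single transcript. Footprints on shared exons may have been divided between the transcripts of a gene, and the part of this in the agreement was not tested. Marker levels differed between the libraries as well. The choroid plexus marker Ttr had 582 CPM in replicate 1 and 277 in replicate 2, and the summed endothelial markers had 167 and 108 CPM. Summed markers of neurons (4775 and 3778), astrocytes (3796 and 2983), red cells (1488 and 1038) and microglia (147 and 130) were also lower in replicate 2. Oligodendrocyte markers were higher there (619 and 784). The part of these marker differences in the calls was not tested. With trimmed-mean factors the 10 transcripts of highest level were among those lower in replicate 2, led by Tubb5-004 with 875 and 1589 counts (log2 ratio -0.79, adjusted p = 1.5e-33 by the exact binomial test). Its share of the gene's footprints was 21.7% and 22.9%.

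Transcripts higher in replicate 2 came from genes of restricted expression as well, here Cryga, Hoxb5 and Pcp2. These genes and Zfp512 were singled out after their values had been seen. Cryga-002, from a gamma-crystallin gene of the lens, had 0 and 60 counts, at least 7.10-fold higher against the floor of 3 counts in replicate 1. This fold and those against the floor below are of CPM over library totals, not of the trimmed-mean scaling behind the calls. The coding Cryga-001 had 0 and 65, so both transcripts of this gene were found in 1 animal. Hoxb5-002, from a homeobox gene of the hindbrain and spinal cord, had 0 and 42 counts (at least 4.97-fold higher), beside 0 and 46 on its coding transcript. Pcp2-003, from a Purkinje cell gene, had 1 and 37 counts, while the 7 transcripts of Pcp2 each had from 1 to 7 counts in replicate 1 and from 30 to 38 in replicate 2. Zfp512-004 had 0 and 26 counts (at least 3.07-fold higher) beside 132 and 550 on the other transcripts of this zinc finger gene, and the share of all retained-intron transcripts of Zfp512 gave a p of 1 by Fisher's exact test.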

How the data were processed

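Per the labels' protocols, footprints of 25 to 35 nt came from RNase I digestion of pooled polysome fractions of 2 brains. The authors deposited raw whole-number counts per transcript with annotated lengths and biotypes. Per the submitters' processing notes, Trimmomatic 0.36, Bowtie2 2.2.6, SAMtools and build GRCm38.p4 were used; their settings, and the treatment of strand, duplicates and multiply matching fragments, are not given in the sources used here. From the counts, CPM over library totals (1866831 and 5261878), density per kilobase and shares per gene were computed in Python 3.11 (scipy 1.17.1). A gene's share was the mean retained-intron CPM over the mean gene CPM. TMM (trimmed mean of M values) factors came from edgeR 4.0.16 and size factors from DESeq2 1.42.0. With 1 group there was no contrast for edgeR's quasi-likelihood test, so Fisher's exact and exact binomial tests with Benjamini-Hochberg adjustment (threshold 0.05) were used. Both were tried on simulated counts with counting noise alone, the model that the tests assume. That checks the calculation and not whether the model holds for these libraries. Log2 ratios between the replicates added 0.5 counts. Log2 density ratios to coding transcripts added none, and genes without a finite ratio were left out. Intervals are exact Clopper-Pearson intervals.

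Named were the 10 transcripts of highest level and of highest density (at least 200 nt), the 10 genes of highest share at mean counts of at least 10 and 100, the 5 genes of lowest adjusted p each way, the 10 genes with most retained-intron transcripts and members of 7 gene lists; others are marked as singled out afterwards. Some genes that this rule takes in are not reported here. Members and lists were chosen with earlier results of these data known. Alternatives were other minimum counts, density shares, pooled counts, other scalings, single replicates, replicate 2 thinned, and, added after the data were seen, coding sequence length and coding transcripts alone as comparison.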

Additional observations from a re-analysis of the deposited data

How the results depend on the processing

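The retained-intron share of the library (9.36%) was 12.8% as a share of density and 9.90% within genes that have a coding transcript; it ranged from 9.09% to 9.64% when each replicate was left out in turn. The median density (6.08 CPM per kb) depended on the minimum count, with 2.02 at a minimum of 1 count and 20.3 at a mean count of 50, and ranged from 5.40 to 6.63 between single replicates. The density ratio to coding transcripts (log2 -0.77) kept its sign under every alternative tried: -0.87 against the highest coding transcript, -0.47 for the highest retained-intron transcript, -1.60 over coding sequence length, and -0.74 with either replicate left out. The median share of a gene's count (15.7%) was 22.4% as a share of density and from 15.3% to 15.8% between single replicates. The number of genes at 50% or more (295) was 671 by density and 184 at a mean count of 100, and from 293 to 347 with a replicate left out. The 2 genes called for a different share became 0 when replicate 2 was reduced at random to the depth of replicate 1, and 3 against coding transcripts alone. The 179 called retained-intron transcripts varied from 137 to 188 with the scaling and the minimum count. Of the 174 genes named by rule, the change in share was not smaller than the SD between replicates in 149 by density, and in 6 with pooled counts. Genes with the same share in both replicates, such as Gm20427 at 100%, have no spread. They were counted here even where their share did not change. No test between the replicates could be made with a replicate left out, since each test needs both. No paired analysis was possible because both samples belong to 1 group. Depth limits low transcripts: a count of 0 allows 1.61 CPM in replicate 1 and 0.570 in replicate 2.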
